A study of Arabidopsis thaliana with 9 samples.

Results

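The 287 genes described here are all genes of the biotype snoRNA on nuclear chromosomes 1 to 5 of Arabidopsis thaliana, out of 37899 nuclear genes in the gene table. They were chosen by biotype and chromosome, with no measured value. Small nucleolar RNAs are short, stable RNAs that work with proteins in the nucleolus on ribosomal RNA. Box C/D snoRNAs guide the methylation of ribose in rRNA by fibrillarin, box H/ACA snoRNAs guide the change of uridine to pseudouridine, and U3 takes part in the cleavage of the rRNA precursor. Plant snoRNA genes often lie in clusters whose members are transcribed together from a shared promoter, and others lie within protein-coding genes.

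The material was sperm nuclei of htr10 plants, which are mutant for a histone H3 gene of the male gamete, and every sample carried this mutation. Chromatin immunoprecipitation of nucleosomes released by micrococcal nuclease was performed for H3K27me1 in 3 samples and for H3K27me3 in 3 samples, with 3 samples of digested input chromatin. H3K27me3 is known as the mark of Polycomb silencing, and H3K27me1 in plants as a mark of silent heterochromatin. The ecotype was labelled Col-0 for 5 samples, and the other 4 samples carried the labels Col-1, Col-2, Col-3 and Col-4. No other genotype was analysed here, so nothing below compares the mutant with the wild type.

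The measurements were peak lists, 1 broad list per mark, with 11898 H3K27me1 peaks that span 20.5 Mb and 12927 H3K27me3 peaks that span 20.4 Mb. Each list stands for all 3 samples of its mark and holds no value per sample. The spread between samples and the depth are therefore unknown, and no difference below has a test. Since the immunoprecipitations and inputs behind the lists are shared by all genes, and genes of a cluster lie under the same peaks, genes are not replicates. For each gene the share of its length under merged broad peaks was measured, and a gene is called covered at 50% or more.

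Most snoRNA genes lay under neither mark, and those under a mark were mostly under both. H3K27me1 peaks covered 77 of the 287 snoRNA genes (26.8%), while 8.3% of all nuclear genes were covered. H3K27me3 peaks covered 93 snoRNA genes (32.4%), while 8.32% of all nuclear genes were covered. Both marks covered 65 snoRNA genes (22.6%), against 5.77% of all nuclear genes. H3K27me1 alone covered 12 (4.18%), against 2.53% of all nuclear genes, and H3K27me3 alone covered 28 (9.76%), against 2.56%. The remaining 182 snoRNA genes (63.4%) were covered by neither mark. Of the snoRNA genes covered by H3K27me1, 84.4% were also covered by H3K27me3, and of those covered by H3K27me3, 69.9% were also covered by H3K27me1.

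Coverage was mostly all or nothing. The genes were 19 to 702 bp long, with a median of 92 bp. The median width of all broad peaks was 1168 bp for H3K27me1 and 1122 bp for H3K27me3, so few genes can be covered in part. Under H3K27me1 peaks, 68 genes lay over their whole length, 15 in part and 204 not at all. Under H3K27me3 peaks, 87 genes lay over their whole length, 10 in part and 190 not at all. Of the 65 genes covered by both marks, 56 were whole under both. Few genes lay near the threshold. For H3K27me1, the nearest below it were AT5G09005 at 34.6% and AT4G08425 at 31.5%, and the nearest above it were AT1G08113 at 55.3% and AT2G35384 at 59.5%. For H3K27me3, the nearest below were AT5G09005 at 34.6% and AT3G04175 at 27.9%, and the nearest above were AT1G09467 at 54.4% and AT2G08910 at 63.8%.

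Other classes of short genes also stood above the share of all nuclear genes. Of 625 tRNA genes, H3K27me1 covered 24.2% and H3K27me3 29.4%, with 19.7% under both. Of 82 snRNA genes, which encode the RNAs of the spliceosome and related particles, H3K27me1 covered 25.6% and H3K27me3 22.0%, with 20.7% under both. H3K27me3 alone covered 28 snoRNA genes (9.76%), 9.76% of tRNA genes and 1 snRNA gene (1.22%). Among all 7882 other nuclear genes no longer than the longest snoRNA gene, H3K27me1 covered 20.5% and H3K27me3 21.2%, with 15.2% under both. These genes are not matched in length, as their median was 354.5 bp against 92 bp for snoRNA genes, and they were not split by place. Protein-coding genes stood lower, at 5.49% for H3K27me1 and 5.67% for H3K27me3. The share of covered genes was thus above that of all nuclear genes in each of these short classes.

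The place of the gene divided the members. A total of 203 snoRNA genes lay outside protein-coding genes, 80 lay wholly inside one, and 4 crossed the edge of one. Outside, H3K27me1 covered 71 genes (34.98%) and H3K27me3 covered 85 genes (41.9%), with 60 under both, 11 under H3K27me1 alone and 25 under H3K27me3 alone. Inside, H3K27me1 covered 6 genes (7.5%) and H3K27me3 covered 8 genes (10.0%), with 5 under both. None of the 4 genes at an edge was covered. The classes of short genes differ in how many of their members lie outside, so the genes outside were also set side by side. Of the 203 snoRNA genes outside protein-coding genes 29.6% were under both marks, against 21.0% of 562 tRNA genes and 28.9% of 45 snRNA genes there. H3K27me1 covered 25.6% of these tRNA genes and 31.1% of these snRNA genes, and H3K27me3 covered 31.3% and 31.1%, all below the snoRNA shares. These differences have no test. Sequence outside protein-coding genes held more of both marks than sequence inside them, so the bases of snoRNA genes were set beside all bases of the same place. Outside, H3K27me1 peaks held 35.1% of the bases of snoRNA genes and H3K27me3 peaks 39.8%, against 31.1% (H3K27me1) and 30.3% (H3K27me3) of all 54.7 Mb there. Inside, H3K27me1 peaks held 5.54% of the bases of snoRNA genes and H3K27me3 peaks 8.96%, against 5.51% (H3K27me1) and 5.92% (H3K27me3) of all 64.5 Mb of protein-coding genes. Most of the difference between the 2 places was therefore shared by all sequence there, and the smaller differences between snoRNA genes and that sequence could not be tested.

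**Figure D1:**
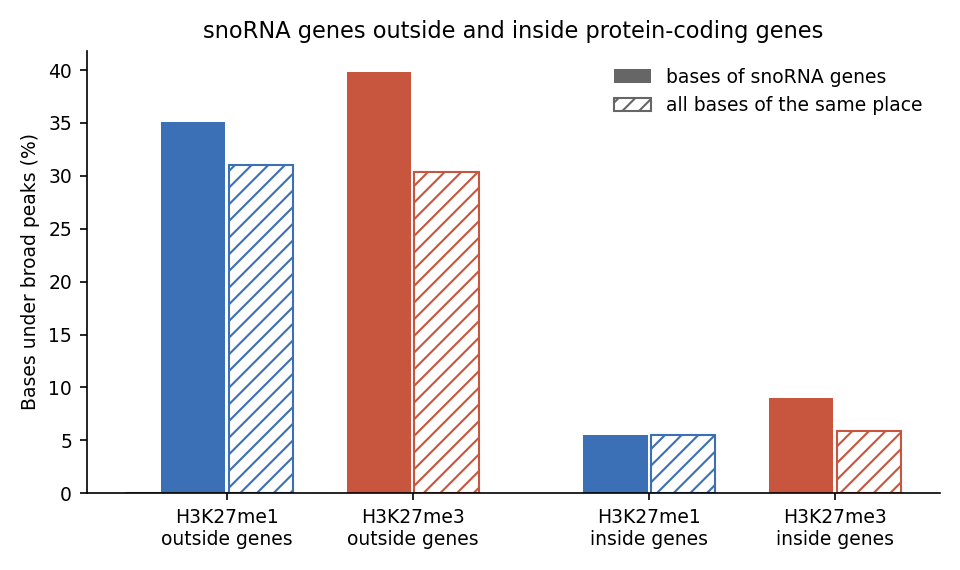
Percent of bases under broad peaks, for snoRNA genes (filled bars) and for all bases of the same place (hatched bars), outside and inside protein-coding genes. For H3K27me1 the filled bars stand at 35.1% outside and 5.54% inside, and for H3K27me3 at 39.8% and 8.96%. This gap is wider than that between any filled bar and its hatched neighbour.

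The genes outside were then read by the width of the gap between protein-coding genes that holds them. In gaps of 1 to 2 kb, which held 76 snoRNA genes, 35.4% of snoRNA gene bases were under H3K27me1 and 42.4% under H3K27me3, against 33.0% and 36.8% of all bases of such gaps. In gaps of 2 to 5 kb, with 73 genes, 34.7% of snoRNA gene bases were under H3K27me1 and 36.6% under H3K27me3, against 36.3% and 39.0% of all bases. These values lay on either side of the gap sequence. The 36 genes in gaps over 5 kb stood further off, with 39.6% of their bases under H3K27me1 and 43.1% under H3K27me3, against 29.9% and 25.9% of all bases. These genes made up only 14 loci. The covered ones include AT2G05565 and the clusters of AT2G05765 and U49.1, which are counted again below among genes in the pericentromere windows. The 2 observations are therefore not separate. The 18 genes in gaps up to 1 kb had 26.6% of their bases under H3K27me1 and 37.5% under H3K27me3, against 19.9% and 23.8% of all bases, but only 4 genes were covered by H3K27me1 and 7 by H3K27me3 there. Covered and uncovered genes lay in gaps of similar width. The median gap was 2223 bp for genes under either mark and 2162 bp for genes under neither. The median distance to the nearest protein-coding gene was 574.5 bp for genes under either mark and 536 bp for genes under neither.

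**Figure D2:**
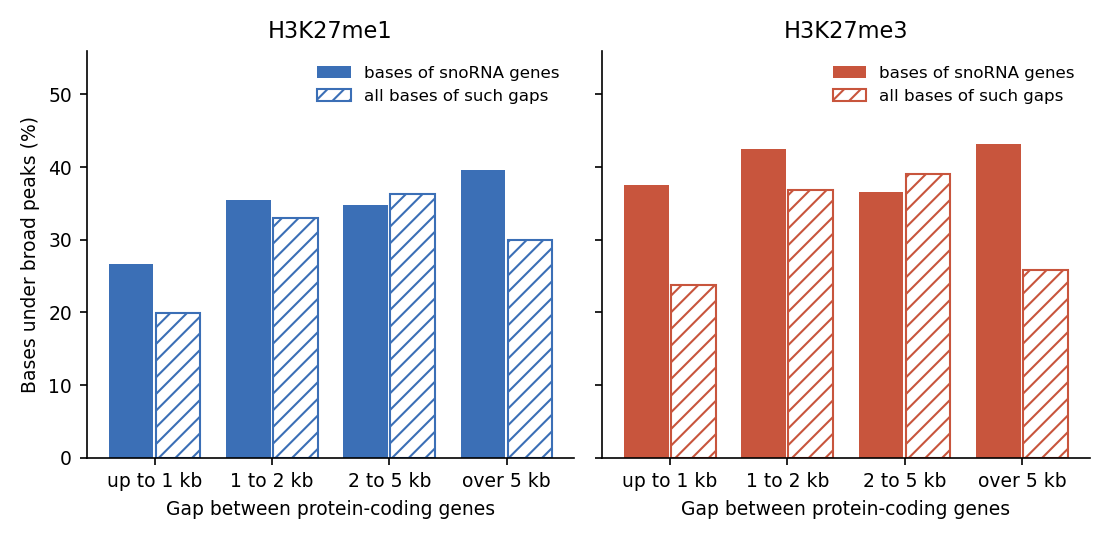
Percent of bases under broad peaks of each mark, for snoRNA genes (filled) and for all bases between protein-coding genes (hatched), by the width of the gap. In gaps of 2 to 5 kb the filled bars are slightly lower than the hatched ones, and in gaps over 5 kb they are higher for both marks.

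Coverage was highest on the genes and lower on both sides of them. At the midpoint of the 203 genes outside protein-coding genes, 34.98% were under H3K27me1 and 41.9% under H3K27me3. At 500 bp from the gene edge the shares were 20.9% for H3K27me1 and 31.8% for H3K27me3, and at 2000 bp they were 7.88% and 10.1%. At that distance 75.1% of positions lay in a protein-coding gene. When only positions outside protein-coding genes were counted, H3K27me1 stood at 24.7% at 500 bp and 25.7% at 2000 bp, and H3K27me3 at 39.6% and 26.7%. Between these distances the shares did not fall steadily, as H3K27me3 stood at 41.4% at 1400 bp and H3K27me1 at 31.7% at 1800 bp. Beyond 2000 bp the shares were lower, with 13.1% for H3K27me1 and 19.7% for H3K27me3 at 2400 bp, and 13.6% and 17.9% at 3000 bp. H3K27me3 at such positions was thus about as frequent at 500 bp as on the gene itself, while H3K27me1 was lower there than on the gene.

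**Figure D3:**
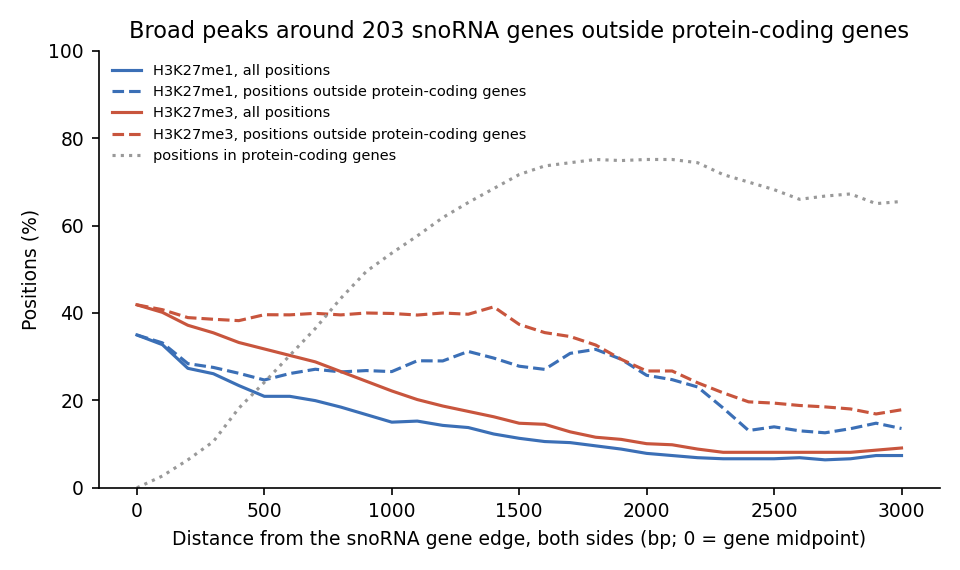
Percent of positions under broad peaks at each distance from the edge of the 203 snoRNA genes outside protein-coding genes, for all positions (solid lines) and for positions outside protein-coding genes (dashed lines), with the percent of positions in protein-coding genes (dotted line). The solid lines fall to 7.88% for H3K27me1 and 10.1% for H3K27me3 at 2000 bp, where the dotted line stands at 75.1%. The dashed lines stand at 25.7% and 26.7% there and at 13.6% and 17.9% at 3000 bp.

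The edges of peaks were often close. Among covered genes, both flanks of 500 bp were wholly under the same mark for 20 of 77 genes with H3K27me1 and for 32 of 93 genes with H3K27me3. A flank with no base under the mark was found for 10 of the H3K27me1 genes and 6 of the H3K27me3 genes. Of the genes with no base under H3K27me1, 22 of 204 had such a peak within 500 bp, and for H3K27me3 this held for 26 of 190. The gene lay in the middle 50% of its peak in 36 of 77 cases for H3K27me1 and in 50 of 93 cases for H3K27me3.

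The peaks themselves were ordinary for their lists. The covered genes lay under 41 distinct H3K27me1 peaks and 49 distinct H3K27me3 peaks. The fold enrichment, which is the authors' value of a peak over the background of the peak caller, had a median of 1.58 for the H3K27me1 peaks on snoRNA genes (range 1.32 to 2.15), against 1.57 for all H3K27me1 peaks. For H3K27me3 the median was 1.66 on snoRNA genes (range 1.39 to 2.36), against 1.64 for all H3K27me3 peaks. The −log10 q-value, also the authors', had a median of 2.61 against 2.99 over all H3K27me1 peaks, and of 2.48 against 2.67 over all H3K27me3 peaks. Of the H3K27me1 peaks on snoRNA genes, 7 had a −log10 q of 5 or more (17.1%, against 19.6% of the whole list), and of the H3K27me3 peaks 6 did (12.2%, against 12.4% of the whole list). The median peak width was 1072 bp against 1168 bp over all H3K27me1 peaks, and 1392 bp against 1122 bp over all H3K27me3 peaks.

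Clusters were defined by another snoRNA gene within 1 kb. There were 216 clustered genes in 71 clusters and 71 single genes, which made 142 loci. H3K27me1 covered 63 clustered genes (29.2%) and 14 single genes (19.7%), and H3K27me3 covered 75 clustered genes (34.7%) and 18 single genes (25.4%). Clusters and single genes also differ in place, and counted by gene, the order outside protein-coding genes was the other way. There, H3K27me1 covered 57 of 171 clustered genes (33.3%) and 14 of 32 single genes (43.8%), and H3K27me3 covered 70 clustered genes (40.9%) and 15 single genes (46.9%). The 171 clustered genes made up only 59 loci. Single genes did not stand above clusters when each locus counted once, as covered if any of its genes outside was covered. Inside, H3K27me1 covered 6 of 43 clustered genes and none of 37 single genes, and H3K27me3 covered 5 clustered and 3 single genes. Counted by locus, 41 of 142 loci (28.9%) held a gene covered by H3K27me1, 49 (34.5%) held one covered by H3K27me3, and 36 held one covered by both.

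Members of a cluster mostly went together. No cluster spanned more than 1144 bp, and the median broad peak was 1168 bp wide for H3K27me1 and 1122 bp for H3K27me3. A single peak can therefore hold most clusters, whatever genes they contain. H3K27me1 covered every member of 20 clusters, some members of 7 and no member of 44. H3K27me3 covered every member of 25 clusters, some members of 6 and no member of 40. In 16 clusters every member was covered by both marks. In each of the 27 clusters with an H3K27me1 gene and the 31 with an H3K27me3 gene, the members touched by that mark shared 1 strongest peak.

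All but 1 of the covered clustered genes under H3K27me3, and all under H3K27me1, lay in clusters of 2 to 4 genes, a split noticed after the values were seen. In pairs, H3K27me1 covered 38.9% and H3K27me3 44.4% of 54 genes. In triplets the shares were 42.0% and 46.4% of 69 genes, and in clusters of 4 genes they were 23.2% and 32.1% of 56 genes. The 37 genes in the 7 clusters of 5 or 6 genes had no gene covered by H3K27me1 and 1 covered by H3K27me3. The largest clusters held 6 genes each, AT2G09680 to AT2G09705 over 1144 bp and AT3G07715 to AT3G47348 over 782 bp, and no base of them lay under either mark. The large clusters are few loci, and the difference from smaller clusters was not tested.

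**Figure D4:**
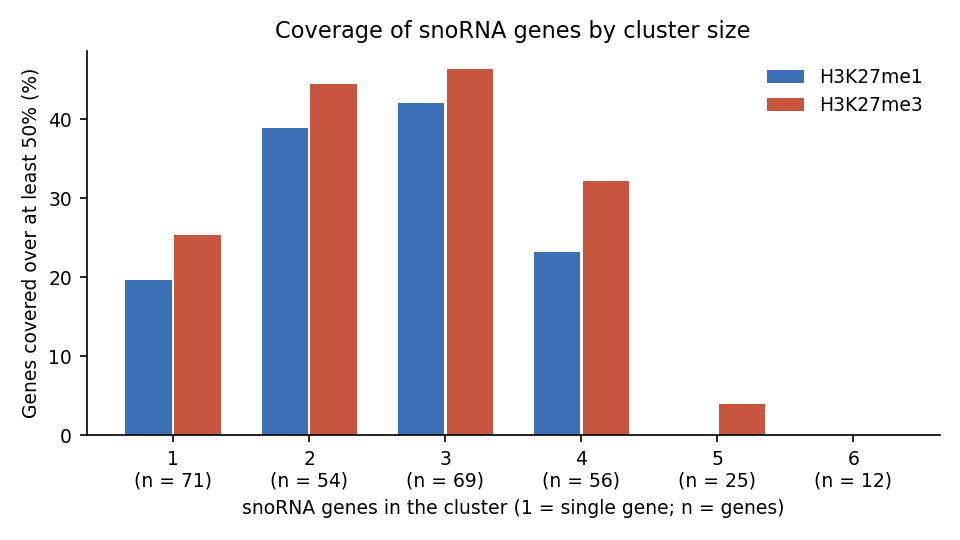
Percent of snoRNA genes with 50% or more of the gene under each mark, by the number of snoRNA genes in the cluster. Triplets are highest, at 42.0% for H3K27me1 and 46.4% for H3K27me3, and clusters of 5 and 6 genes hold 1 covered gene in all.

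The strongest locus under both marks was AT5G06565 on chromosome 5. Its H3K27me1 peak, from 17839264 to 17840232 (TAIR10), had a fold enrichment of 2.15 and a −log10 q of 9.26, and its H3K27me3 peak, from 17839255 to 17840394, had a fold enrichment of 2.36 and a −log10 q of 9.44. Both peaks had the highest fold enrichment of all peaks on snoRNA genes in their list. The gene was also whole under the narrow peaks of both marks. Its partner in the cluster, AT5G44286, had 15.3% of its length under the H3K27me1 peak and its whole length under the H3K27me3 peak.

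The next locus was the triplet of U49.1 (AT4G05048), AT4G05045 and AT4G05055 in the pericentromere window of chromosome 4. The windows are chosen intervals, given below. U49 snoRNAs are of the box C/D kind. The triplet lay whole under an H3K27me1 peak from 2584601 to 2587891, with a fold enrichment of 1.98 and a −log10 q of 9.02, and under an H3K27me3 peak from 2585284 to 2587890, with 2.12 and 7.82. No narrow peak of either mark lay on it.

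On chromosome 4, AT4G06010 lay whole under both marks, with a fold enrichment of 1.75 and a −log10 q of 5.74 for the H3K27me1 peak from 7682535 to 7684196, and 2.12 and 8.80 for the H3K27me3 peak from 7682646 to 7683946. The other members of its cluster differed between the marks. AT4G06015 was whole under H3K27me1 and had 11.9% under H3K27me3, and AT4G13245 was whole under H3K27me1 and had none under H3K27me3.

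On chromosome 5, the pair AT5G05375 and AT5G05385 in the pericentromere window lay whole under the broad and narrow peaks of both marks. The H3K27me1 peak ran from 14710294 to 14712155 with a fold enrichment of 1.69 and a −log10 q of 5.07, and the H3K27me3 peak from 14710469 to 14712163 with 1.81 and 5.11. On chromosome 1, AT1G08643 had 85.0% of its length under an H3K27me1 peak of fold enrichment 1.83 and −log10 q 4.76, and 66.1% under an H3K27me3 peak of 1.99 and 4.67. The chromosome 1 gene AT1G06673 and the chromosome 3 gene AT3G05715, both near the edge of a pericentromere window, lay whole under both marks. The H3K27me1 peaks had a fold enrichment of 1.70 on AT1G06673 and 1.68 on AT3G05715, and the H3K27me3 peaks 1.74 and 1.72.

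On chromosome 2, AT2G07605 and AT2G07615 lay under an H3K27me1 peak from 9559052 to 9560676, with a fold enrichment of 1.72 and a −log10 q of 5.33, and under an H3K27me3 peak of 1.74 and 3.97, which covered AT2G07615 over 80.7%. The chromosome 1 trio AT1G03743, AT1G03746 and AT1G04213 lay under peaks of nearly the same ends, from 937032 to 937467 for H3K27me1 and from 937023 to 937470 for H3K27me3, with fold enrichments of 1.66 and 1.84. AT1G04213 lies inside the protein-coding gene AT1G03740, 11 bp from its edge.

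The 4 clusters with the most covered members held 4 genes each, and 3 of them are in the map of broad peaks over clusters. In the cluster of AT4G04465, AT4G03295, AT4G04475 and AT4G04485, all 4 genes were whole under both marks, on chromosome 4. Their H3K27me1 peak spanned 1441847 to 1448460 (fold enrichment 1.67, −log10 q 4.07), and their H3K27me3 peak had nearly the same ends, 1441836 and 1448470 (1.68 and 3.10). The first 3 were also whole under narrow peaks of both marks. In the cluster of AT1G09867, AT1G09873, AT1G09877 and AT1G09883, all 4 genes were whole under H3K27me3, and AT1G09883 had 93.1% under H3K27me1 where the other 3 were whole. The last 3 of these genes lie inside the protein-coding gene AT1G79520.

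The marks parted in the remaining clusters of 4. All of AT1G08107, AT1G08113, AT1G08117 and AT1G08123 were whole under an H3K27me3 peak from 21051428 to 21053112 on chromosome 1, with a fold enrichment of 1.45 and a −log10 q of 1.36. The H3K27me1 peak, from 21052521 to 21052889, covered them at 0%, 55.3%, 100% and 26.4%. All of AT3G27865, AT3G05325, AT3G05335 and AT3G05355 were whole under an H3K27me3 peak from 10328079 to 10331000 on chromosome 3, with 1.72 and 3.03, and only AT3G27865 was covered by H3K27me1, at 88.0%. Each of these H3K27me1 peaks was shorter than the H3K27me3 peak that it met.

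**Figure D5:**
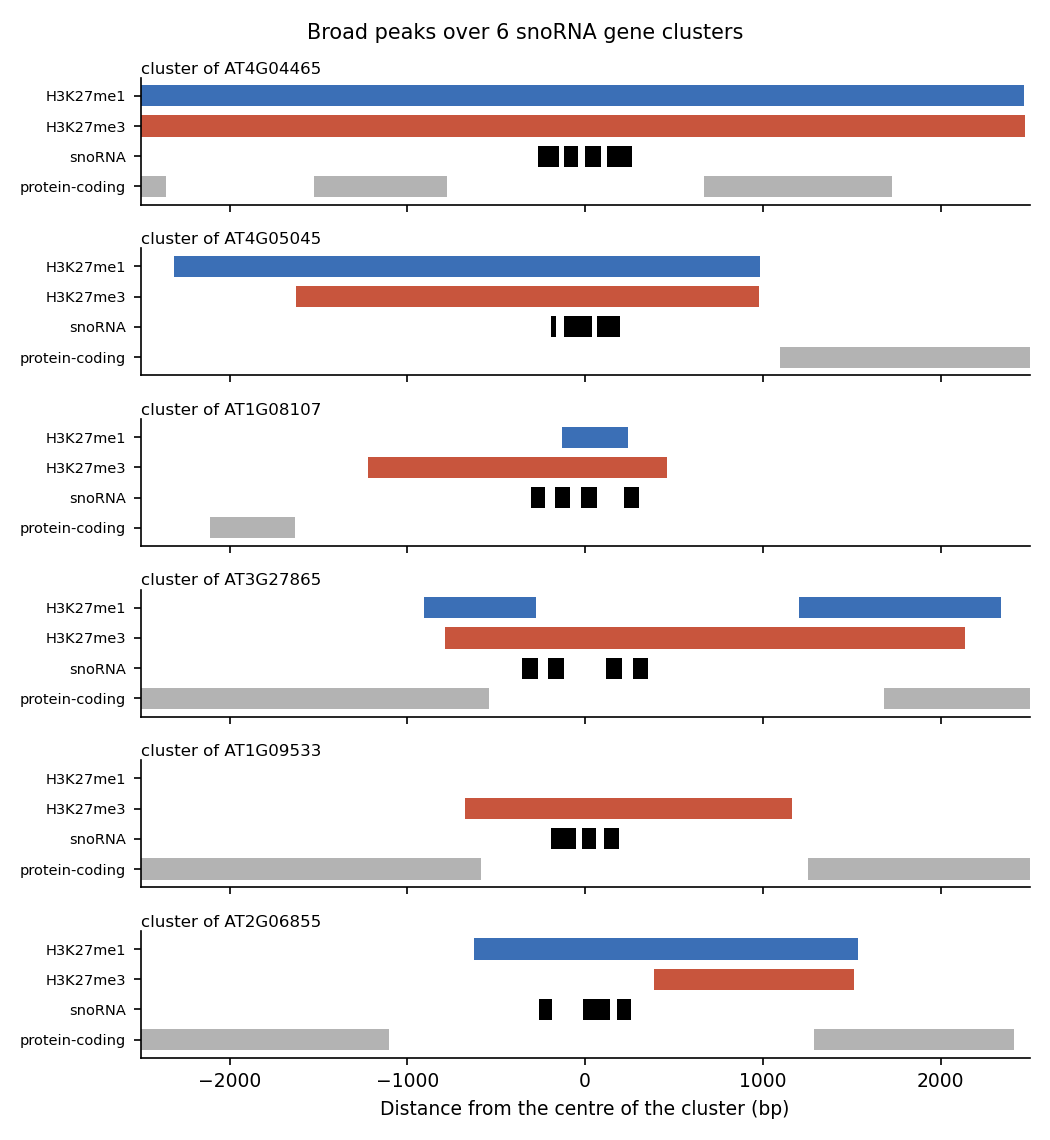
Broad peaks of H3K27me1 and H3K27me3, snoRNA genes and protein-coding genes over 6 clusters, by distance from the centre of the cluster in bp. Peaks of both marks run past the whole cluster of AT4G04465 and of AT4G05045, an H3K27me1 peak meets part of the clusters of AT1G08107 and AT3G27865, and the genes of the AT1G09533 cluster lie under H3K27me3 alone and those of the AT2G06855 cluster under H3K27me1 alone, with an H3K27me3 peak beside them.

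Genes under a single mark were fewer than the 65 genes under both marks, which lay in 36 loci. The 12 genes under H3K27me1 alone lay in 7 loci, and the 28 under H3K27me3 alone lay in 18 loci. Of these, 11 of 12 and 25 of 28 had no base at all under the other mark. Another peak was often near, as the other mark lay on the gene or within 500 bp for 7 of the 12 and 11 of the 28 genes. Under H3K27me1 with no H3K27me3, the strongest peaks after that on AT4G13245 lay on AT2G06855, AT2G06865 and AT2G17295 (chromosome 2, 7520140 to 7522298, fold enrichment 1.52, −log10 q 3.01) and on AT5G02565 and AT5G02575 (chromosome 5, 5448433 to 5449663, 1.66 and 2.98). Under H3K27me3 with no H3K27me1, the strongest peak lay on AT1G09533, AT1G75163 and AT1G75166 (chromosome 1, 28211734 to 28213576, 2.08 and 6.30). The next lay on AT1G06453 (chromosome 1, 11422089 to 11423594, 1.73 and 4.01). The median −log10 q of the H3K27me3 peak was 2.16 for genes under H3K27me3 alone and 2.88 for genes under both marks. For H3K27me1 it was 2.98 for genes under H3K27me1 alone and 2.97 for genes under both marks. These medians count each gene, and genes of a cluster share a peak. Counted once per locus, the H3K27me1 peaks of the 7 loci under H3K27me1 alone stood at 1.05, 1.21, 1.58, 1.86, 2.98, 3.01 and 5.74. The near equality of the H3K27me1 medians therefore does not hold as a comparison of loci.

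In the pericentromeres snoRNA genes were few and mostly covered. The windows taken, in Mb, were 12–18 for chromosome 1, 1–7 for chromosome 2, 11–17 for chromosome 3, 2–6 for chromosome 4 and 9–16 for chromosome 5. Of the 15 genes there outside protein-coding genes, H3K27me1 covered 12 (80.0%) and H3K27me3 covered 12 (80.0%), with 11 under both. These 15 genes made up 10 loci, of which 8 were covered by either mark. H3K27me1 peaks held 88.1% of their bases and H3K27me3 peaks 85.6%, against 35.7% (H3K27me1) and 29.1% (H3K27me3) of all bases outside protein-coding genes in the windows. AT2G05525 and AT5G04945 were the genes outside protein-coding genes in the windows that neither mark covered. They lay in wide gaps between protein-coding genes, of 48362 and 159805 bp. The sequence of the windows was not matched to the snoRNA genes by gap width or by distance from the centromere, and the difference was not tested. On the arms, H3K27me1 covered 59 of 188 genes outside protein-coding genes (31.4%) and H3K27me3 covered 73 (38.8%). H3K27me1 peaks held 31.5% of the bases of these arm genes and H3K27me3 peaks 36.7%, against 27.7% (H3K27me1) and 31.2% (H3K27me3) of all such sequence on the arms. Most covered genes were thus on the arms, where snoRNA genes outside protein-coding genes stood closer to all such sequence than in the windows.

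The 80 genes inside protein-coding genes lay in 56 hosts. The 9 that were covered by either mark lay in 7 hosts and sat 11 to 360 bp from the nearer edge of the host, with a median of 197 bp, against a median of 611 bp for the 71 uncovered genes. They were AT1G04213, AT1G06453 in AT1G31835, AT1G07487 in AT1G48460, the 3 genes in AT1G79520, AT5G06115 in NRPB12, AT5G09000 in ACHT5 and AT5G09495 in AT5G65860. NRPB12 encodes a small subunit of RNA polymerase II, and ACHT5 a thioredoxin of the chloroplast. H3K27me3 alone covered AT1G06453, AT1G07487 and AT5G06115, and H3K27me1 alone covered AT5G09495, at 60%. Of the 56 host genes themselves, H3K27me1 covered 1, AT5G27850 at 72.8%, and H3K27me3 covered 2, AT1G31835 at 91.4% and NRPB12 at 60.2%. Of all protein-coding genes 5.49% were covered by H3K27me1 and 5.67% by H3K27me3, so these small counts are near the background and are not a result about hosts. Any base under H3K27me1 was found in 16.1% of hosts, against 22.7% of all protein-coding genes, and any base under H3K27me3 in 19.6%, against 26.0%. The 6 hosts with the symbol of a translation factor or ribosomal protein were EIF3G1, EIF3G2, EIF4A1, EIF4A-2, eIFiso4G1 and RPL34. They held 8 snoRNA genes and had no base under either mark. Most of the 56 hosts also had no base under a mark, so this is not a result about these 6. Hosts without such a symbol were not sorted by function, so these 6 need not be all hosts of that kind.

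Of the 12 snoRNA genes with a symbol in the table, 3 were covered, each by both marks. Both marks covered 22.6% of all snoRNA genes, so this small count is not a result about genes with a symbol. Besides U49.1 these were SNOR111 (AT1G12013) and SNOR105 (AT1G29071). The peaks on SNOR111 had a fold enrichment of 1.43 for H3K27me1 and 1.53 for H3K27me3, and those on SNOR105 of 1.47 and 1.61. Their −log10 q was low, at 1.32 for H3K27me1 and 1.77 for H3K27me3 on SNOR111, and 1.82 and 2.29 on SNOR105. SNOR105 was also whole under both narrow peaks. The other 9 had no base under either mark. Among these were U3B (AT5G53902) and U3D (AT5G54075), genes of the U3 RNA, and U60.1F and U60.2F, which lie inside FIB1 (AT5G52470) and FIB2 (AT4G25630). FIB1 and FIB2 encode fibrillarin, the methyltransferase of box C/D particles, so the U60 genes and their hosts belong to the same pathway, and no base of either host lay under a peak.

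Genes for the proteins of snoRNA particles and rRNA processing were read from a list of 20 loci. Neither mark covered any of them, while 5.49% of protein-coding genes were covered by H3K27me1 and 5.67% by H3K27me3. The median coverage was 0% for both marks, as for all protein-coding genes. Any base was under H3K27me1 in 2 of 20 and under H3K27me3 in 5 of 20, against 22.7% and 26.0% of all protein-coding genes. AT5G27120 had 11.4% under H3K27me1 and 18.5% under H3K27me3. AT4G12600 had 0% and 19.0%, AT3G05060 had 0% and 1.13%, and NUC-L1, a nucleolin gene, had 0% and 9.97%. NUC-L2, the other nucleolin gene, had 2.36% and 2.39%. The list is short, and a count of 0 beside background shares of 5.49% and 5.67% is not a result about its members. The same holds for the counts of members with any base under a mark.

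The narrow lists, which hold 9451 H3K27me1 and 8940 H3K27me3 peaks, kept 16 of the snoRNA genes under both marks, in 10 loci. The share of all nuclear genes under the narrow lists was not counted, so this number has no background beside it. These were AT1G05247, SNOR105, AT1G08643, AT3G24612, AT3G24614, AT3G04985, AT3G05715, AT4G02555, AT4G04205, the 4 genes of the AT4G04465 cluster, AT5G05375, AT5G05385 and AT5G06565. All of them except SNOR105 carry only a locus name in the gene table.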

How the data were processed

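The deposited broad and narrow peak lists of H3K27me1 and H3K27me3 were analysed. Per the submitters' processing notes, MACS2 2.1.0, Bowtie2 2.1.0, deepTools 2.5.0.1, SAMtools 1.3, Trim Galore 0.4.1, bedtools, Picard and the build TAIR10 were used, without a role for each. Not given in the sources used here are the way samples and inputs entered the calls and whether reads with several equally good positions were kept. Treatment of such reads bears on snoRNA genes with near-identical copies. The authors' columns read here, known from their layout, were the fold enrichment (a ratio to background) and the −log10 q-value of a deposited peak. The lowest −log10 q was 1.02 in the broad and 2.00 in the narrow lists.

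Overlapping intervals of a list were merged, and the covered share of each gene was computed with Python 3.11.15, numpy 2.4.6 and pandas 2.3.3, with figures from matplotlib 3.10.9. The interval code was tested on simulated data. Gene intervals and names came from a RefSeq table on TAIR10.1, so no gene coordinate is printed. Peaks keep the coordinates of the files and are numbered from 1. The shared numbering was checked by sliding the narrow peaks up to 3000 bp against the genes in steps of 100 bp. The share of peaks in protein-coding genes was lowest with no shift in 20 of 20 combinations of mark, chromosome and part of chromosome. Genes are inside a protein-coding gene when wholly within it.

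The members and lists were chosen with earlier results of these data known. Genes named are those under both marks ranked by the weaker −log10 q, those under 1 mark with none of the other, the clusters with most covered members and the largest, covered genes with a symbol, hosts of covered genes, genes next to the threshold, and protein genes of snoRNA particles with any coverage. TRB1, listed at first with these, was dropped because the gene table names it a telomere repeat binding factor. Sequences and promoter motifs were not analysed here. Alternatives were a cover of 1 bp or of the whole gene, the stronger 50% of peaks by fold enrichment, −log10 q of at least 5, the narrow lists, cluster distances of 500 bp and 2 kb, any overlap with a protein-coding gene as inside, and no gene under 60 bp.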

Additional observations from a re-analysis of the deposited data

How the results depend on the processing

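Counts are of genes under H3K27me1 and H3K27me3, in that order, with both marks, H3K27me1 alone and H3K27me3 alone after them where given. Against 77, 93, 65, 12 and 28, the stronger 50% of peaks gave 45, 55, 37, 8 and 18, a −log10 q of at least 5 gave 13, 13, 7, 6 and 6, and the narrow lists gave 21, 25, 16, 5 and 9. Clustered genes, 63 and 75, came to 11 and 13 at −log10 q of at least 5 and 16 and 17 under narrow peaks, and single genes, 14 and 18, to 2 and 0, and 5 and 8. Genes outside protein-coding genes, 71 and 85, came to 13 and 13, and 20 and 25, and genes inside, 6 and 8, to 0 and 0, and 1 and 0. These settings use fewer peaks by construction. The share of all nuclear genes was not counted under them, so they do not show how snoRNA genes stand against that background. A cover of 1 bp (83, 97, 70, 13 and 27), a cover of the whole gene (68, 87, 56, 12 and 31), leaving out genes under 60 bp (73, 88, 61, 12 and 27; chosen after seeing the data), the other cluster distances and the other rule for inside kept each count within 1.5 times. No paired analysis was possible because the lists hold no value per sample and no result comes from a test, and for the same reason no sample could be left out. Depth and the spread between samples are unknown.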

Other observations

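Outside protein-coding genes, snoRNA genes are given by chromosome beside all bases outside protein-coding genes of that chromosome, as a description of few loci with no test. On chromosome 2, H3K27me1 covered 11 and H3K27me3 8 of 38 genes, and 24.8% and 17.7% of their bases were under the marks, against 35.4% and 33.4% of all such bases. On chromosome 3, H3K27me1 covered 12 and H3K27me3 18 of 37 genes, and 35.3% and 54.0% of their bases were under the marks, against 31.2% and 29.7%. Chromosome 1 had 17 and 25 of 55 genes, with 30.8% and 42.5% of their bases, against 27.6% and 27.8%. Chromosome 4 had 14 and 14 of 32 genes, with 42.9% and 46.3% of their bases, against 32.8% and 32.1%. Chromosome 5 had 17 and 20 of 41 genes, with 43.5% and 39.7% of their bases, against 29.9% and 29.9%. Genes under H3K27me1 alone numbered 6 on chromosome 2 and none on chromosomes 1 and 3.

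Of the genes outside protein-coding genes, 43 in 21 loci overlapped an annotated long noncoding RNA. H3K27me1 covered 18 of these (41.9%) and H3K27me3 24 (55.8%). The 137 genes that overlapped no other noncoding entry, in 64 loci, had 49 under H3K27me1 (35.8%), 56 under H3K27me3 (40.9%) and 41 under both (29.9%). The difference was not tested.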
